A study of Mus musculus with 4 samples.

Results

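Acinar enzyme-rich spots were the spots of 4 pancreas sections in which Prss2, Cpa1, Ctrb1, Cela3b and Pnlip together held the largest share of the captured RNA molecules. A Visium spot is a barcoded patch of the slide that can lie under several cells, and molecules are tallied through unique molecular identifiers (UMIs). In each section the spots with at least 500 UMIs were ranked by the UMIs of these 5 genes divided by all UMIs of the spot, and the top 25% were kept. This gave 6759 enzyme-rich spots of 27040 spots with at least 500 UMIs, and 56869 spots were listed in all. The remaining 20281 spots are called other spots below.

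The sections were formalin-fixed, paraffin-embedded pancreas from C57Bl/6 mice of 4 weeks of age that carried Pdx1-Cre in both groups, 2 labelled Ehmt2+/+ and 2 labelled Ehmt2fl/fl. All mice received caerulein, a cholecystokinin analogue that causes acute pancreatitis, in 8 hourly injections of 50 μg/kg after a fast of 12 h, and tissue was taken 18 h after the first dose. Pdx1 drives Cre in the epithelium of the pancreas, islets included, so stromal and immune cells of the Ehmt2fl/fl mice keep Ehmt2, which encodes the histone H3 lysine 9 methyltransferase G9a. No sham-treated section is part of the series. Nothing in the sources ties the 2 sections of a group to separate litters or days, so p-values measure the spread between these sections.

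Values over the 4 sections are given below in the order Ehmt2+/+ 1, Ehmt2+/+ 2, Ehmt2fl/fl 1 and Ehmt2fl/fl 2. Enzyme-rich spots numbered 1536, 1977, 1624 and 1622 in this order, and other spots 4611, 5931, 4873 and 4866. The enzyme-rich spots held 11052253, 2618837, 1937116 and 2614675 UMIs, so the section Ehmt2+/+ 1 was the deepest by far. Their median was 6664.5 UMIs a spot in that section and 1210, 1182 and 1475 in the remaining 3, against 6182, 806, 927 and 1033 in other spots. Both groups were spread over 2 slides, but both Ehmt2+/+ sections lay on capture area B1 and both Ehmt2fl/fl sections on A1, so genotype and capture area cannot be told apart. Spots over tissue could not be picked out, since the tissue marks carry no barcodes. In the section Ehmt2+/+ 1, 5818 positions were marked as tissue and 6147 spots had at least 500 UMIs, so some spots there lay off the marked tissue. The 4 matrices share a common set of position barcodes, with 13898 listed in all 4 sections and 20 of them enzyme-rich in all 4, so a barcode in common marks a position on the slide and not a shared cell.

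The labels were checked against the genes that define them. Ehmt2 had 163, 11, 22 and 20 UMIs in enzyme-rich spots, or 14.7, 4.20, 11.4 and 7.65 CPM, the UMIs of a gene as a share of all UMIs scaled to the usual CPM total. In every section but Ehmt2+/+ 1 its level lay within that of olfactory receptor genes, which are not known to be used in pancreas. The section Ehmt2+/+ 2 was the lowest of the 4, the groups overlapped, and Ehmt2 did not pass the test between genotypes, with a log2 fold change of -1.97 ± 0.66 (SE) and an adjusted p of 0.382 by edgeR's quasi-likelihood test with TMM scaling. With library sizes alone the fold change was -0.02. Without the section Ehmt2+/+ 1 the direction turned, at 0.14. A probe need not lie in the deleted exons, so Ehmt2 checks neither label. Xist, the transcript that silences the inactive X chromosome of females, had 0 UMIs in every section and so told none of them apart. The 725 features of the Y chromosome had 3, 13, 1798 and 4917 UMIs in enzyme-rich spots. The sections labelled Ehmt2fl/fl therefore held Y-linked transcripts and those labelled Ehmt2+/+ held next to none, and sex and genotype cannot be told apart.

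Acinar cells make up most of the exocrine pancreas and store digestive enzymes as inactive zymogens in granules. Their enzyme genes are driven together by PTF1, a complex of Ptf1a, an E-box partner and Rbpj or its acinar form Rbpjl, with Nr5a2 and Bhlha15 among its co-regulators. In caerulein pancreatitis acinar cells are known to lose enzyme expression and to take up duct-like features.

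The 5 enzymes of the score are each secreted by acinar cells. Prss2 encodes an anionic trypsinogen, Cpa1 carboxypeptidase A1, Ctrb1 chymotrypsinogen B, Cela3b a chymotrypsin-like elastase and Pnlip pancreatic lipase. In GENCODE annotation of GRCm38, the build of the files, Prss2 starts at 41521787 and Cpa1 at 30639218 on chromosome 6, Ctrb1 lies on chromosome 8, Cela3b on chromosome 4 and Pnlip on chromosome 19. The 250 bases before the start of each gene in RefSeq were searched on both strands for CANNTG, the E-box bound by the Ptf1a dimer, and for TTTCCC, the core bound by Rbpj and Rbpjl. Of all 32851 promoters of the same length, 66.2% held a CANNTG, 21.9% a TTTCCC and 14.2% both. Prss2, Cpa1 and Ctrb1 held both, Cela3b held CANNTG only, and Pnlip held neither. The stretches that carry the matches of the first 3 genes are shown because they hold both parts of the motif that PTF1 binds, with matches to either motif in capitals, read on the strand of the gene, so that TTTCCC on the opposite strand appears as GGGAAA.
Prss2, chr6:41521559-41521709, plus strand: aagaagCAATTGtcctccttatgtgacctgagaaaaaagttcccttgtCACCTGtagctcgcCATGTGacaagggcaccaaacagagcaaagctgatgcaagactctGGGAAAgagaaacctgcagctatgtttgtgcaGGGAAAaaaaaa
Cpa1, chr6:30639174-30639210, plus strand: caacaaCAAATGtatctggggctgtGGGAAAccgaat
Ctrb1, chr8:111691194-111691221, minus strand: tcagagCAGCTGtcctTTTCCCatgggt
In Ctrb1 the 2 motifs lay nearest to each other, with the E-box starting at position -205 and TTTCCC at -195 from the gene start. A match is a run of letters and was not tested for binding.

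The score that chose the spots ranged over different values in the 2 genotypes. The lowest enzyme-rich spot had 44.9%, 39.2%, 21.2% and 19.9% of its UMIs from the 5 genes, and the highest 78.6%, 77.2%, 46.5% and 45.9%. The cut fell in a dense part of the distribution in every section, since the spot just outside it had 44.9%, 39.1%, 21.2% and 19.9%. Median scores were 46.2%, 41.0%, 25.5% and 24.2% in enzyme-rich spots against 42.3%, 34.2%, 12.4% and 10.7% in other spots. Enzyme-rich spots of both sections labelled Ehmt2fl/fl thus had a lower median than the other spots of both sections labelled Ehmt2+/+. The gap between the 2 medians was 3.90 and 6.80 percentage points for Ehmt2+/+ but 13.2 and 13.5 for Ehmt2fl/fl, so the name marks a narrow contrast in the first pair and a wide one in the second.

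**Figure D1:**
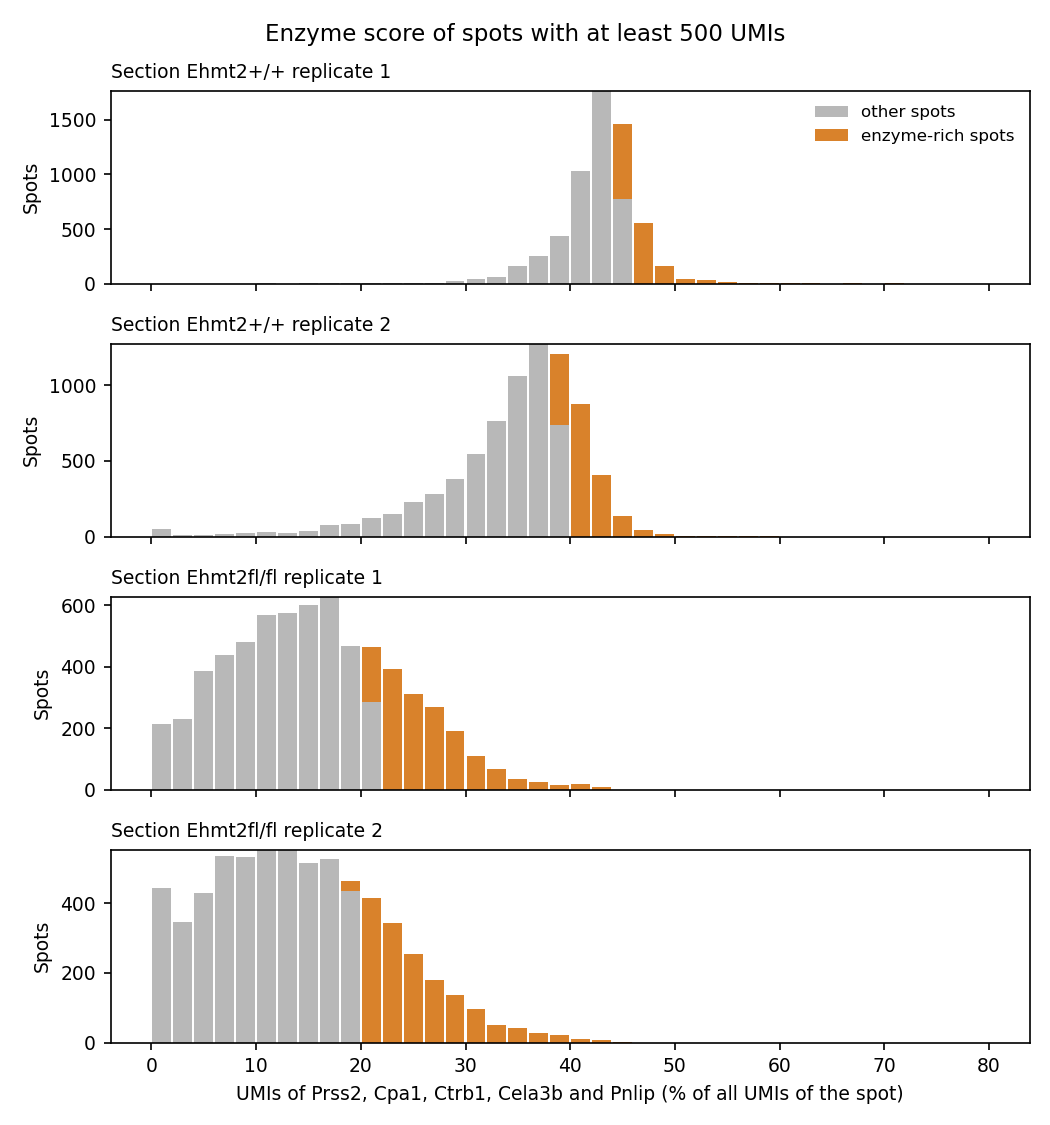
The number of spots in bins of 2 percentage points of the score (horizontal axis, % of the UMIs of a spot from the 5 enzymes) in each section, with enzyme-rich spots in orange stacked on other spots in grey. Enzyme-rich spots start at 44.9% and 39.2% for Ehmt2+/+ and at 21.2% and 19.9% for Ehmt2fl/fl.

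Ctrb1 carried most of the score. It held 83.3%, 83.7%, 88.0% and 88.7% of the UMIs of the 5 genes in enzyme-rich spots, and Cela3b held 9.23%, 9.62%, 6.70% and 6.50%. Cpa1 followed with 4.59%, 4.48%, 3.52% and 3.39%, Prss2 with 1.88%, 1.70%, 1.52% and 1.14%, and Pnlip with 0.980%, 0.531%, 0.281% and 0.261%. Within the enzyme mixture the share of Ctrb1 was thus higher, and that of each of the remaining 4 genes lower, in both sections labelled Ehmt2fl/fl than in both labelled Ehmt2+/+. These shares come from the UMIs that chose the spots and are a description. UMIs of Prss2 may be split with near-identical trypsinogen genes, so its level is uncertain.

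Set to a depth of 500 UMIs a spot, so that sections of unequal depth can be compared, a median enzyme-rich spot held 195, 172, 113 and 108 UMIs of Ctrb1, with 10th to 90th percentiles of 176 to 219, 156 to 193, 94 to 143 and 89 to 145. The spread among enzyme-rich spots was widest in the sections labelled Ehmt2fl/fl, relative to the median. For Cela3b the median was 21, 20, 9 and 8 UMIs, and for Cpa1 10, 9, 4 and 4. Pnlip was absent from many spots at this depth, since 83.7% (95% Clopper-Pearson interval 81.7% to 85.5%), 64.7% (62.6% to 66.9%), 31.5% (29.2% to 33.8%) and 26.3% (24.1% to 28.5%) of enzyme-rich spots held at least 1 of its UMIs. In other spots these shares were 87.4%, 55.2%, 18.7% and 13.9%. Intervals cover counting error only. In the section Ehmt2+/+ 1 the enzyme-rich spots did not exceed other spots in Pnlip, and the same section had lower CPM in enzyme-rich than in other spots for Prss2, at 8827 against 10294, and for Cpa1, at 21570 against 24329. Ctrb1 rose there from 341817 to 391279 CPM and Cela3b from 42545 to 43335, so the higher score rested on Ctrb1, against a fall in Prss2 and Cpa1.

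Digestive enzymes outside the score were next described, since the rule did not read them, although it sets them through the same cells. The list names 31 enzymes, of which 24 had UMIs, among them Cela2a and Cela1 (elastases), Ctrl (a chymotrypsin-like protease), Cel (carboxyl ester lipase) and several trypsinogens. Together they held 19.2%, 18.2%, 8.77% and 8.88% of the UMIs of enzyme-rich spots and 20.3%, 16.1%, 4.26% and 3.85% of those of other spots. Counted among UMIs outside the 5 score genes, enzyme-rich over other spots gave a log2 ratio of 0.04, 0.38, 1.30 and 1.47. Other enzymes therefore rose and fell with the score in both sections labelled Ehmt2fl/fl and much less so in Ehmt2+/+ 1, where the gap between the median scores was smallest.

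**Figure D2:**
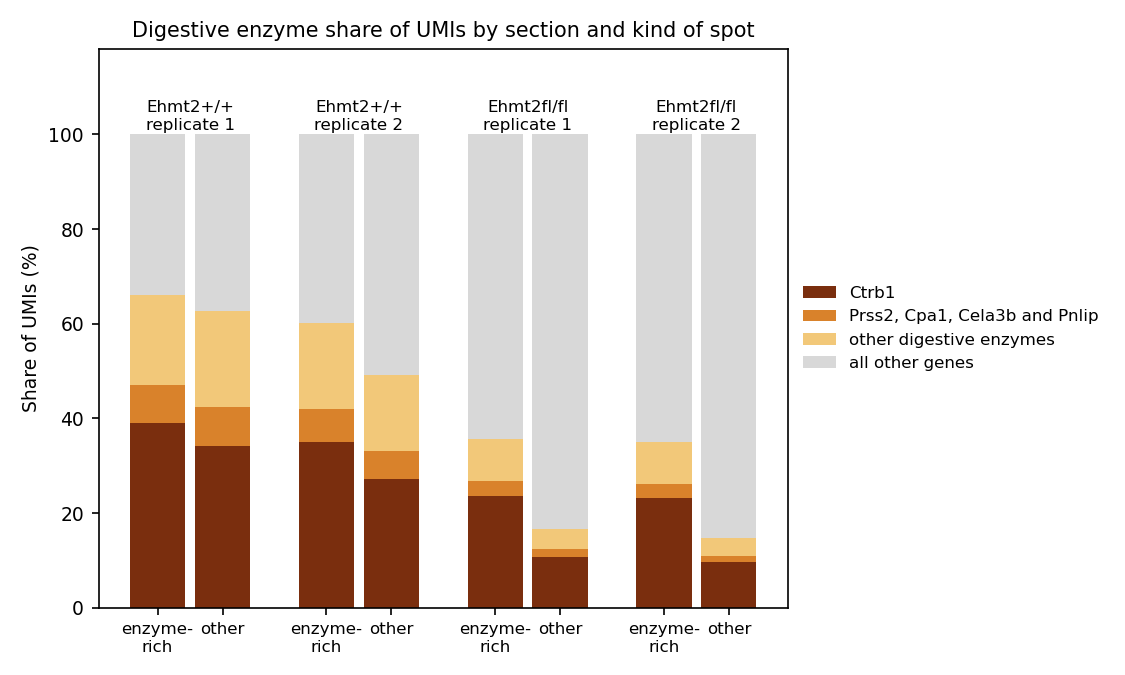
Share of all UMIs (vertical axis, %) from Ctrb1, the remaining 4 score enzymes, other digestive enzymes and all other genes, summed over enzyme-rich or other spots of each section. All digestive enzymes together held 66.2% and 60.1% in enzyme-rich spots for Ehmt2+/+ and 35.6% and 35.0% for Ehmt2fl/fl.

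Single genes were described by their direction over the 4 sections, for 12914 genes with at least 20 UMIs in at least 1 of the 2 kinds of spot in every section. Every log2 ratio of enzyme-rich over other spots given below is taken among UMIs outside the 5 score genes, with 0.5 added to each sum, so it can be above 0 where the CPM of all UMIs is not. Of these, 2.39% were higher and 41.3% were lower in enzyme-rich spots in 4 of 4 sections, and the median log2 ratio was -0.07, -0.42, -0.29 and -0.34. Because the spots were chosen on these sections, the counts are a description with no test. Of the 24 other digestive enzymes, 10 were higher in 4 of 4 sections and 0 were lower. Cela2a, the most abundant of them, had 66345, 68710, 13708 and 12025 CPM in enzyme-rich spots against 69887, 60242, 5425 and 4375 in other spots. Cela2a was far below its level in Ehmt2+/+ in both kinds of spot of the sections labelled Ehmt2fl/fl, yet it separated the 2 kinds of spot most clearly there, with log2 ratios of 0.04, 0.39, 1.60 and 1.73. Prss3, a trypsinogen, went the other way in level, with 1035, 1452, 7835 and 6827 CPM in enzyme-rich spots, and Prss1 had 479, 401, 5654 and 6150. Neither Prss3 nor Prss1 passed the test between genotypes, with adjusted p-values of 0.805 and 0.566 by edgeR, and both may share UMIs with other trypsinogens.

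Of 23 zymogen granule and secretion genes, 8 were higher in enzyme-rich spots in 4 of 4 sections, against 2.39% of all genes, and 5 were lower, against 41.3%. The higher genes included Sycn (syncollin, a granule membrane protein), with log2 ratios of 0.17, 0.36, 1.19 and 1.44, Gp2 (the main granule membrane glycoprotein), with 0.03, 0.31, 1.22 and 1.39, and Cuzd1, with 0.14, 0.37, 1.37 and 1.33. Spink1, a trypsin inhibitor packed in the same granules, gave 0.01, 0.29, 1.31 and 1.48. The median over the 23 genes was 0.00, -0.09, 0.16 and -0.06, near 0 in every section. The small GTPase Rab3d, which coats the granules, gave 0.06, 0.27, 0.81 and 0.85 and the exocytosis protein Vamp8 only 0.00, 0.15, 0.12 and 0.35. Among the lower genes was Sctr, the secretin receptor, with 2.35, 4.96, 56.8 and 49.7 CPM in enzyme-rich and 3.21, 21.2, 79.3 and 70.3 CPM in other spots.

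Reg proteins are secreted lectin-like proteins that acinar cells make in injury. Of 7 Reg genes, 3 were higher in enzyme-rich spots in 4 of 4 sections and 1, Reg4, was lower, against 2.39% and 41.3% of all genes. Reg1 had 26529, 34882, 17152 and 13121 CPM in enzyme-rich spots and log2 ratios of 0.04, 0.43, 1.44 and 1.42. Reg3b had 3766, 3423, 1303 and 738 CPM, with ratios of -0.01, 0.35, 1.64 and 1.66.

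Of 15 acinar transcription factors, 2 were higher and 4 were lower in 4 of 4 sections, against 2.39% and 41.3% of all genes. Rbpjl was among the higher genes, with log2 ratios of 0.07, 0.19, 1.33 and 1.33. Ptf1a itself had 25.9, 17.9, 30.5 and 23.3 CPM in enzyme-rich spots and ratios of 0.01, -0.30, 0.25 and 0.11, and Bhlha15, a factor for granule organization, gave -0.23, 0.16, -0.35 and -0.23. Rbpj, the broadly expressed relative of Rbpjl, was lower in enzyme-rich spots of every section, at -0.48, -0.68, -0.70 and -1.14, with 4.43, 8.02, 14.5 and 14.5 CPM in them.

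Of 42 genes for folding and export in the endoplasmic reticulum (ER), 3 were higher in 4 of 4 sections and 12 were lower, against 2.39% and 41.3% of all genes. Erp27, an ER protein typical of acinar cells, rose with the score, at log2 ratios of 0.13, 0.22, 1.32 and 1.38, as did Herpud1 and Sec11c. The abundant chaperone Hsp90b1 had 493, 574, 1733 and 1502 CPM in enzyme-rich and 554, 778, 2682 and 2153 CPM in other spots, so it was lower in enzyme-rich spots in all 4 sections. Pdia3, a disulfide isomerase, gave 0.02, -0.08, -0.35 and -0.24 and Hspa5, the main ER chaperone, -0.11, -0.09, -0.04 and 0.21.

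Over 10 genes of the unfolded protein response and the amino acid response the median log2 ratio was -0.03, -0.15, 0.30 and 0.65. Of these 10 genes, 2 were higher in 4 of 4 sections and 2 were lower, against 2.39% and 41.3% of all genes. The higher genes were Eif2ak3, the ER stress kinase PERK, with 0.15, 0.11, 0.74 and 0.83, and Asns, asparagine synthetase, with 0.07, 0.17, 0.92 and 1.15. Atf4, the factor downstream of PERK, gave 0.02, -0.10, 0.41 and 0.63. Of 21 genes for amino acid and one-carbon metabolism, 0 were higher and 3 were lower, against the same shares of all genes. Cbs, which makes cystathionine, gave -0.08, 0.08, 0.81 and 1.12.

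Of 28 genes of acinar injury and duct-like change, 2 were higher in 4 of 4 sections, Clu and Tff2, and 9 were lower, against 2.39% and 41.3% of all genes. Clu, which encodes the secreted chaperone clusterin, had 14103, 10725, 15746 and 12506 CPM in enzyme-rich spots against 14561, 10714, 10427 and 7434 in other spots. At 500 UMIs a spot its median was 7, 5, 8 and 6 UMIs in enzyme-rich and 7, 5, 5 and 3 in other spots. The medians of the 2 kinds of spot were equal in both sections labelled Ehmt2+/+ and lower in other spots of both labelled Ehmt2fl/fl. Keratins Krt18 and Krt8 gave log2 ratios of -0.14, 0.24, 0.93 and 1.03 and of -0.07, 0.03, 0.66 and 0.81. Lower genes of the same list included Spp1 (osteopontin), which had 133, 129, 658 and 534 CPM in enzyme-rich and 148, 178, 1085 and 706 CPM in other spots, and S100a6, which gave -0.09, -0.76, -0.64 and -0.53.

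Among 19 oxidative stress and metal genes, 2 were higher in enzyme-rich spots in 4 of 4 sections and 5 were lower. Mt1 (metallothionein) had 4199, 3704, 5053 and 7323 CPM in enzyme-rich spots, with log2 ratios of 0.05, 0.12, 0.88 and 1.05, and the autophagy receptor Sqstm1 had 794, 1203, 1933 and 1876 CPM, with 0.04, 0.14, 0.75 and 0.90. Iron storage differed, since Fth1, the ferritin heavy chain, was lower in enzyme-rich spots in all 4 sections, at -0.09, -0.20, -0.33 and -0.22. Immediate early genes had 0 of 19 higher and 9 lower, against 2.39% and 41.3% of all genes, with Jun at 104, 145, 458 and 419 CPM in enzyme-rich spots. Heat shock genes had 0 of 15 higher and 4 lower, and translation genes 1 of 8 higher, Eef2, and 1 lower.

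Outside these lists, the 10 genes with the highest mean log2 ratio among those higher in 4 of 4 sections included Myo5c, Tspan1, Gjb2, Vtn, Dhx34, Sdc1, Nccrp1, Lbh and Gstt3. Myo5c, a myosin of exocrine secretory granules, had 43.4, 26.0, 46.5 and 56.6 CPM in enzyme-rich against 46.1, 22.5, 30.1 and 23.8 CPM in other spots, or log2 ratios of 0.03, 0.42, 0.89 and 1.52. Gjb2, the gap junction protein connexin 26 of acinar cells, gave 0.03, 0.12, 1.23 and 1.17, and Sdc1, the proteoglycan syndecan 1, 0.06, 0.14, 1.02 and 1.13. The lowest were Vip, Syt13, Pcsk1n, Resp18, Cd5l, Eef1a2, Ccl26, Serpinb3b, Wdr31 and Scgn, of which Syt13, Pcsk1n, Resp18 and Scgn are known from endocrine cells. Vip, a neuropeptide, had 0.452, 1.91, 7.23 and 6.12 CPM in enzyme-rich spots.

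**Figure D3:**
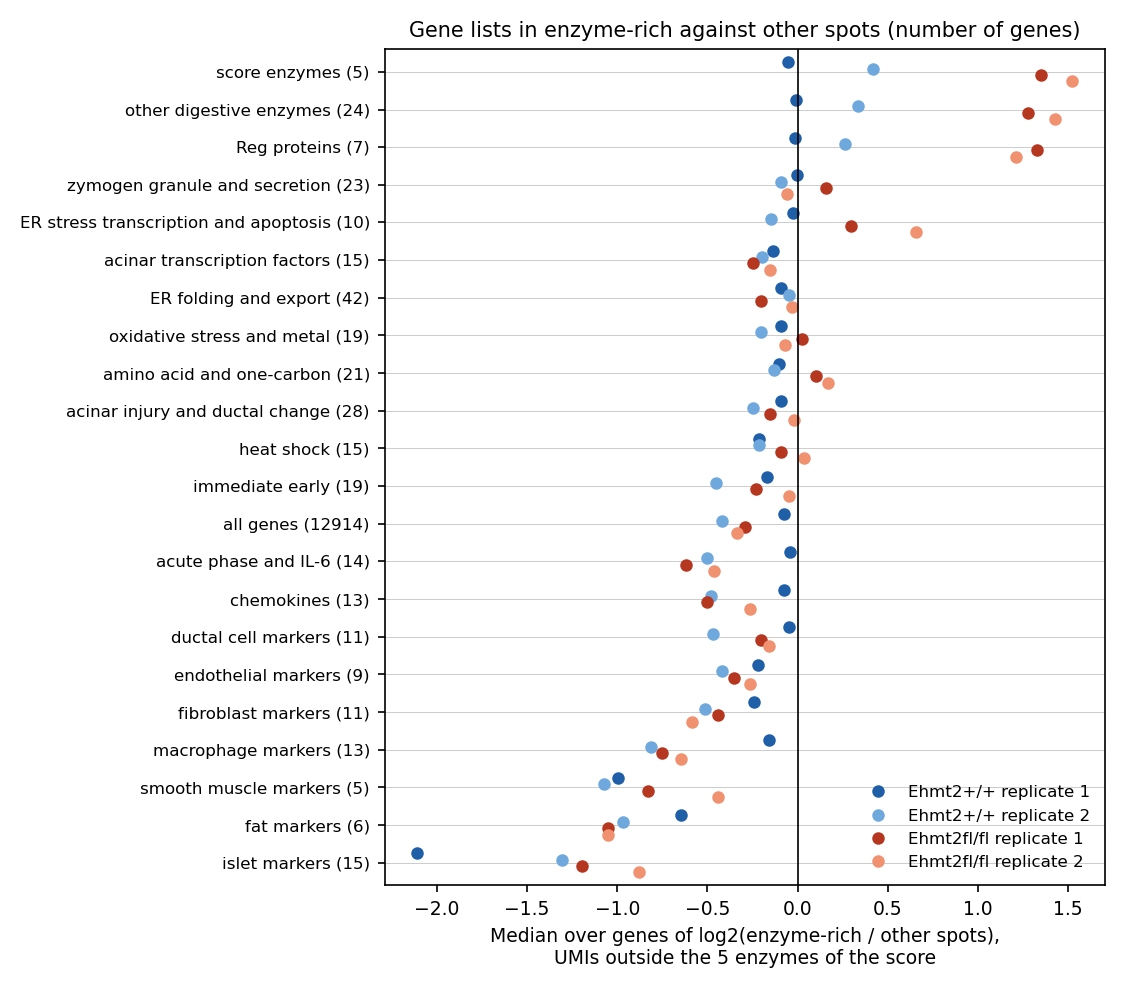
For each gene list (vertical axis, with its number of genes in parentheses), the median over genes of the log2 ratio of enzyme-rich over other spots (horizontal axis), 1 point for each section. Other digestive enzymes reach 1.28 and 1.43 in the sections labelled Ehmt2fl/fl, while islet markers lie between -2.11 and -0.88 in all 4.

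Markers of other cell types were set against the 41.3% of all genes that were lower in enzyme-rich spots in 4 of 4 sections. Islet markers had 14 of 15 genes lower in 4 of 4 sections, fat 6 of 6, smooth muscle 5 of 5, endothelium 8 of 9, macrophages 10 of 13 and fibroblasts 8 of 11. Red blood cell markers had 3 of 4, neutrophil markers 2 of 3 and chemokines 9 of 13. Ducts with 4 of 11, lymphoid cells with 2 of 6 and acute phase and IL-6 genes with 6 of 14 lay near the share of all genes or below it. In all these lists 0 genes were higher in 4 of 4 sections. Islet markers summed to 248, 219, 1744 and 501 CPM in enzyme-rich and 1509, 1167, 9031 and 1363 CPM in other spots, with Ins2, insulin 2, the most abundant. Insulin RNA was therefore found in enzyme-rich spots as well, at 106, 74.8, 930 and 190 CPM of Ins2, and was highest in Ehmt2fl/fl 1, the section with the most Ins2 in other spots.

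In enzyme-rich spots, 89.5% of all genes tested had a higher CPM in both sections labelled Ehmt2fl/fl than in both labelled Ehmt2+/+, and markers of stromal and immune cells lay near that share, with 11 of 12 fibroblast and 14 of 14 macrophage genes. Macrophage markers summed to 190, 245, 1771 and 1183 CPM in enzyme-rich spots and 229, 492, 3598 and 2232 CPM in other spots, with Cd74, the invariant chain of antigen presentation, the most abundant. Fibroblast markers summed to 422, 460, 1561 and 1399 CPM, led by Col1a2, and duct markers to 564, 738, 1689 and 1580 CPM, led by Spp1. No marker of these lists but Tspan8, a tetraspanin on the duct list, was called between genotypes by edgeR. Their part in the other differences between genotypes was not tested, and fewer cells of a type and less RNA per cell cannot be told apart in spots.

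The low end of the CPM scale moved in the same way. The 1135 olfactory receptor genes, which are not known to be used in pancreas, had a median of 0.271, 3.05, 5.16 and 7.65 CPM in enzyme-rich spots and 0.244, 5.91, 9.33 and 14.8 CPM in other spots. A gene at such a level cannot be told from background. The section Ehmt2+/+ 1 had the lowest background, and in the remaining 3 sections it was lower in enzyme-rich than in other spots. Its part in the lower ratios of weakly detected genes was not tested. At 500 UMIs a spot, enzyme-rich spots showed a median of 148, 174, 302 and 317 genes and other spots 165, 222, 387 and 410.

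Levels were also followed over successive bands of 25% of the spots, from the highest score to the lowest. Among UMIs outside the score genes, Cela2a went from 18742 to 9613, 6319 and 2708 CPM in Ehmt2fl/fl 1, whereas in Ehmt2+/+ 1 it went from 125089 to 125777, 122705 and 111679 and in Ehmt2+/+ 2 from 118309 to 113318, 97267 and 54798. Clu went from 21528 to 16328, 12705 and 6770 CPM in Ehmt2fl/fl 1 and from 26590 to 24692 between the first and last band in Ehmt2+/+ 1. Collagen ran the other way. Col1a2 rose from 791 to 1064, 1355 and 1447 CPM in Ehmt2fl/fl 1, and in Ehmt2+/+ 1 it held at 228, 221 and 231 before reaching 438 in the last band.

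**Figure D4:**
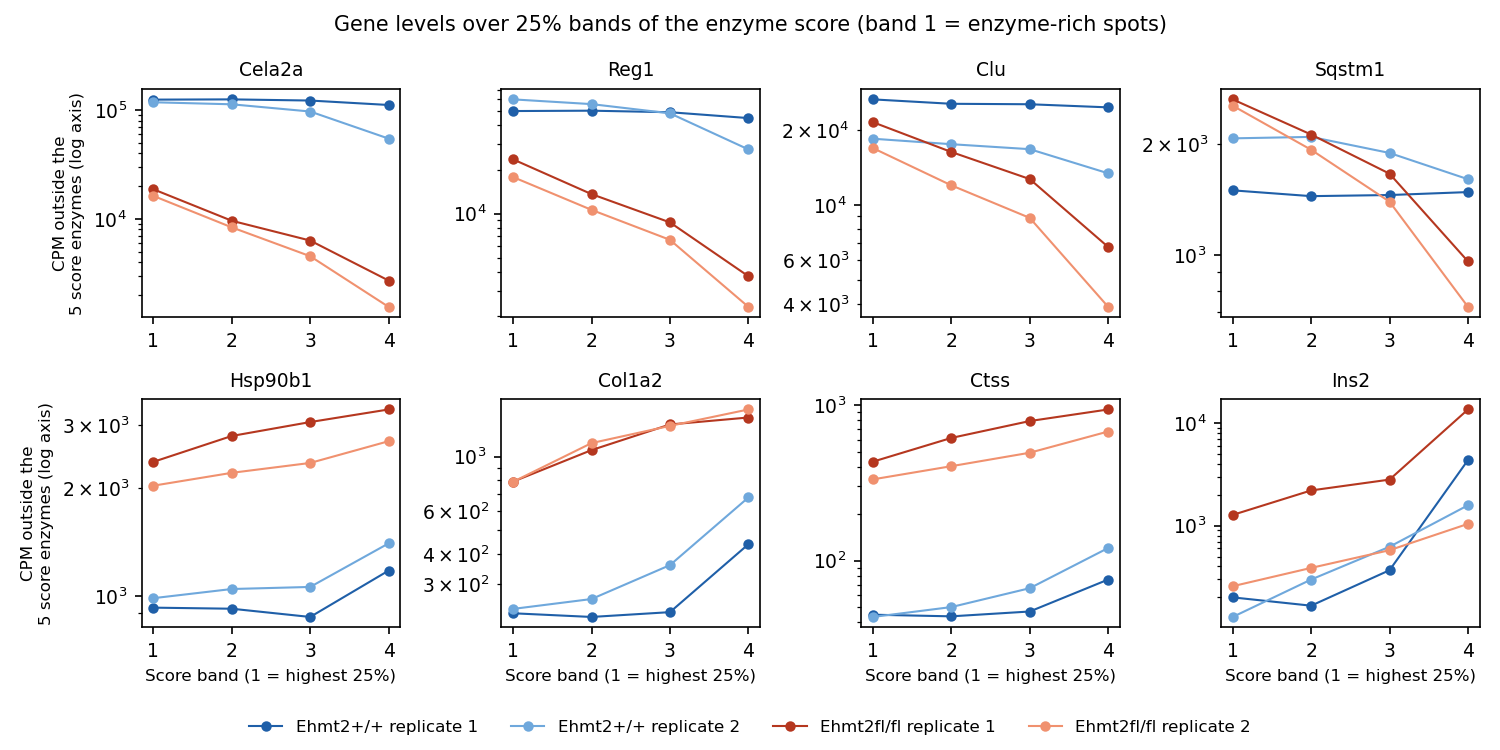
Level of 8 genes (vertical axis, CPM among UMIs outside the 5 score enzymes, log axis) over 4 bands of the score, each with 25% of the spots of a section, from the enzyme-rich spots in band 1 to the lowest scores in band 4; each line is 1 section. Cela2a, Reg1, Clu and Sqstm1 fall from band 1 to band 4 in both sections labelled Ehmt2fl/fl, and Hsp90b1, Col1a2, Ctss and Ins2 rise.

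Enzyme-rich spots were then compared between genotypes, with the UMIs of each section summed and each section as 1 replicate. The sections labelled Ehmt2fl/fl had a lower share of digestive enzyme UMIs in these spots, higher levels of Cldn18 and Mmp7 and lower levels of Reg2 and Rbpjl. All digestive enzymes held 66.2%, 60.1%, 35.6% and 35.0% of their UMIs, a mean of 63.1% ± 4.30 (SD, n = 2) against 35.3% ± 0.43 (n = 2). This share includes the score genes and is a description. The enzymes outside the score differed by -9.86 percentage points, from 18.7% ± 0.74 to 8.82% ± 0.08 (n = 2 each, exact two-sided permutation p = 0.333), and by -10.4 and -9.28 points within slides 1 and 2. That p is 2 of the 6 possible splits and the smallest that 2 sections against 2 allow, so this test cannot pass a threshold of 0.05 with 2 sections a group.

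Of 18291 genes tested, 31 were called at an adjusted p under 0.05 (0.169%), with 19 higher (0.104%) and 12 lower (0.0656%) in the sections labelled Ehmt2fl/fl, by edgeR with TMM scaling. In other spots of the same sections 27 of 20005 genes were called (0.135%), 10 higher (0.05%) and 17 lower (0.085%). Of the 31 genes called in enzyme-rich spots, 13 were also called in other spots. The count in other spots ran from 3 with upper-quartile factors to 187 with library sizes alone. It was 173 with DESeq2 (2552 genes with an adjusted p) and 11 with slide as a block, and it moved widely when 1 section was left out. The count in enzyme-rich spots depended heavily on scaling and on single sections. It was 2022 (2001 higher) with library sizes alone, because 89.5% of the tested genes had a higher CPM in both sections labelled Ehmt2fl/fl and 0.656% a lower one. The median log2 fold change over all genes was 0.21 with TMM scaling and 1.60 with library sizes alone, so a log2 fold change below is relative to the bulk of genes and lies below the ratio of the CPM. Without 1 section the count was 384 (without Ehmt2+/+ 1), 13394 (without Ehmt2+/+ 2), 6 (without Ehmt2fl/fl 1) and 5 (without Ehmt2fl/fl 2), where the lone section left in a group is taken to vary like the pair in the other. The direction of the 31 called genes did not turn under any alternative that gave the gene a value.

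Of the 31 genes, 10 lie on the Y chromosome, whose transcripts were next to absent from the sections labelled Ehmt2+/+. The 10 were Eif2s3y and 9 copies of multicopy families, Gm21118, Gm20825, Gm21310, Gm20807, Gm20815, Gm20854, Gm20914, Gm21693 and Gm3376, whose UMIs may be split among near-identical copies. The 5 largest positive log2 fold changes were all among them, from 8.98 ± 1.24 (SE) for Gm20815 to 11.13 ± 1.31 for Gm21118. Gm21310 had 0, 1, 504 and 1490 UMIs in enzyme-rich spots.

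Of the remaining 9 higher genes, those given here were named after their values were seen, except for Cldn18 and Tspan8, which are on the lists. Cldn18, a tight junction claudin of stomach and lung (chromosome 9, 99689461 to 99717267), had 14, 4, 416 and 517 UMIs, or 1.27, 1.53, 215 and 198 CPM. Both sections labelled Ehmt2fl/fl lay far above both labelled Ehmt2+/+, with a log2 fold change of 5.51 ± 0.81 and an adjusted p of 5.98e-05 by edgeR. In the section Ehmt2+/+ 2 its level lay within that of olfactory receptor genes, of which 87.4% were as high or higher. At 500 UMIs a spot, 9.91% (95% Clopper-Pearson interval 8.50% to 11.5%) and 8.45% (7.14% to 9.91%) of enzyme-rich spots of the sections labelled Ehmt2fl/fl held a Cldn18 UMI, against 6.46% and 5.36% of other spots, and 0.0651% and 0.101% in the sections labelled Ehmt2+/+. Of the 9 genes, Cldn18 and Rhox5 had a higher CPM in enzyme-rich than in other spots of both sections labelled Ehmt2fl/fl.

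Mmp7, the metalloprotease matrilysin, had 2.80, 7.26, 315 and 394 CPM in enzyme-rich spots, with a log2 fold change of 4.70 ± 0.78 and an adjusted p of 0.000606 by edgeR. Tspan8, Ptx3 (a secreted pentraxin), Ankrd1, Wnt7b (a Wnt ligand) and the germline gene Asz1 had log2 fold changes from 2.85 for Wnt7b to 3.71 for Asz1. Rhox5, a homeobox gene of the X chromosome, had 5.51 ± 0.82, with 1, 2, 103 and 66 UMIs. With the top 10% of the score and with spots of at least 1000 UMIs, Ankrd1, Wnt7b, Asz1 and Rhox5 were not called. Their log2 fold changes there were 2.74 and 3.31, 2.60 and 2.80, 3.23 and 3.73, and 8.09 and 5.95. Ptx3 stayed called in both settings, at 4.14 and 3.92. Without either section labelled Ehmt2fl/fl, however, Ptx3, Ankrd1, Wnt7b and Asz1 lost the call. Their log2 fold changes then ran from 2.81 (Wnt7b) to 3.75 (Asz1). Rhox5 lost it without Ehmt2fl/fl 1, at 4.59. Asz1 also lost its call with spots thinned to 500 UMIs, at 2.47, and Ankrd1 with digestive enzymes left out, at 2.89. Cldn18, Mmp7 and Tspan8 were also called with the top 10% of the score and with spots of at least 1000 UMIs, and each lost the call without either section labelled Ehmt2fl/fl, with log2 fold changes from 5.27 to 6.22 for Cldn18, 4.65 to 5.07 for Mmp7 and 3.38 to 4.36 for Tspan8 over these 4 settings.

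All 12 lower genes lay lower in both sections labelled Ehmt2fl/fl than in both labelled Ehmt2+/+. Reg2 (chromosome 6, 78395623 to 78408106) had 1806, 1038, 338 and 209 CPM, with a log2 fold change of -4.17 ± 0.90 and an adjusted p of 0.0251 by edgeR. Of the 12, Pnlip is a score gene, so its values of 4604, 2226, 754 and 681 CPM are a description and support nothing, as is the lower CPM of Prss2, Cpa1, Ctrb1 and Cela3b in both sections labelled Ehmt2fl/fl. Reg2, Rbpjl, Sel1l, Ang, Pdcd4 and Gnmt each lost their call with the top 10% of the score, with spots of at least 1000 UMIs and without either section labelled Ehmt2fl/fl, with log2 fold changes between -4.78 (Reg2) and -2.29 (Gnmt) over these 4 settings. The size of these changes rests on which Ehmt2+/+ section is used, since without Ehmt2+/+ 1 and without Ehmt2+/+ 2 the log2 fold change was -2.90 and -5.09 for Reg2, -2.25 and -4.45 for Rbpjl, -2.17 and -4.60 for Sel1l and -2.41 and -4.73 for Pdcd4. By edgeR 0 of 7 Reg genes were called higher and 1 lower, against 0.104% and 0.0656% of all genes. Of the 7, 6 had an unadjusted p under 0.05, against 1312 of all 18291 genes. DESeq2 called 6 of the 6 with an adjusted p lower, against 217 of 4106 genes in all. The 7 Reg genes had a median log2 fold change of -2.63, against 0.21 over all genes.

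Rbpjl, the acinar subunit of PTF1, had 92.9, 52.7, 25.3 and 19.5 CPM, with a log2 fold change of -3.51 ± 0.76 and an adjusted p of 0.0268 by edgeR. By edgeR 1 of 17 acinar transcription factors was called lower and 0 higher, against 0.0656% and 0.104% of all genes. Of the 17, 10 had an unadjusted p under 0.05, against 1312 of all 18291 genes. DESeq2 called 4 of the 8 with an adjusted p lower and 0 higher, against 217 lower and 14 higher of 4106 genes in all. Xbp1, a driver of secretory capacity, had 352, 208, 176 and 174 CPM and an adjusted p of 0.309 by edgeR, and Ptf1a had 0.635. Sel1l, an adaptor of ER-associated degradation, had 54.3, 26.3, 10.8 and 12.6 CPM, with -3.64 ± 0.75 and an adjusted p of 0.0148 by edgeR. It was the 1 gene of 42 for ER folding and export called by edgeR. Of the 42, 9 had an unadjusted p under 0.05, against 1312 of all 18291 genes. DESeq2 called 4 of the 36 with an adjusted p lower, against 217 of 4106 genes in all. Gnmt, glycine N-methyltransferase, had 16.4, 14.5, 3.10 and 6.88 CPM, -3.35 ± 0.66 and an adjusted p of 0.00956, although in the sections labelled Ehmt2fl/fl its level lay within that of olfactory receptor genes, as did those of Dusp26 and Sostdc1. For Sel1l, 7.22% and 11.7% of olfactory receptor genes were as high or higher in these sections.

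Ang (angiogenin) had 140, 107, 24.3 and 29.1 CPM with a log2 fold change of -3.97 ± 0.77, and Rnase4, a related ribonuclease, a log2 fold change of -3.39. Ang and Rnase4 overlap on chromosome 14, so their signals may not be independent. Pdcd4, an inhibitor of translation initiation, had 131, 68.7, 22.7 and 29.1 CPM, with a log2 fold change of -3.79 ± 0.78 and an adjusted p of 0.0143. The last 4 genes were Dusp26, Chst2, Sostdc1 and Tent5c, with log2 fold changes from -3.51 to -3.37. Rnase4 and these 4 were not called with spots of at least 1000 UMIs, at log2 fold changes from -3.32 (Chst2) to -2.71 (Dusp26). Rnase4, Chst2, Sostdc1 and Tent5c also lost the call with the top 10% of the score, at -3.30 (Sostdc1) to -2.71 (Rnase4), where Dusp26 had no value. Without either section labelled Ehmt2fl/fl, Rnase4 and these 4 lost the call as well, at -3.91 (Dusp26) to -3.15 (Rnase4). With library sizes alone Dusp26, Sostdc1 and Gnmt were not called, at -2.04, -1.59 and -1.60. Upper-quartile factors also ended the call of Dusp26, at -3.18. With digestive enzymes left out Tent5c and Rnase4 were not called, at -3.50 and -3.52.

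**Figure D5:**
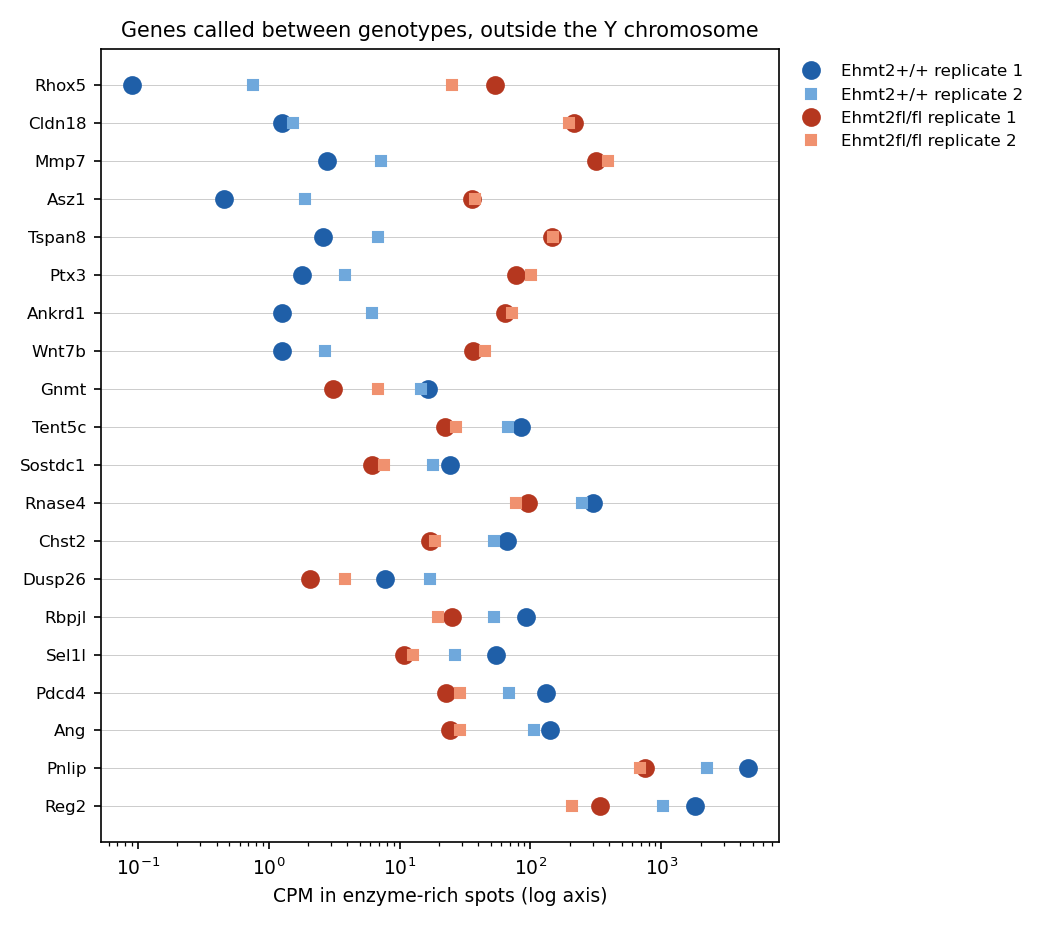
CPM in enzyme-rich spots (horizontal axis, log scale) of 20 of the 21 called genes outside the Y chromosome, with large circles for replicate 1 and small squares for replicate 2 of each genotype. The sections labelled Ehmt2fl/fl lie above those labelled Ehmt2+/+ for the 8 upper genes and below for the 12 lower genes, with no overlap.

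Of all genes tested 0.169% were called, so few or no calls in lists of this size say nothing about them. The digestive enzymes outside the score had 0 of 24 genes called in either direction by edgeR. Of the 24, 19 had an unadjusted p under 0.05, 17 of them lower, against 1312 of all 18291 genes. DESeq2 called 15 of the 21 with an adjusted p lower and 0 higher, against 217 lower and 14 higher of 4106 genes in all. For the 24 enzymes the edgeR fit gave a median log2 fold change of -2.79. Yet 15 of the 24 had a lower CPM in both sections labelled Ehmt2fl/fl, against 0.656% of all genes, and 6 a higher one, against 89.5%. Zymogen granule genes had 0 of 23 called by edgeR and a median of -1.26. Of the 23, 12 had an unadjusted p under 0.05, against 1312 of 18291 genes, and DESeq2 called 8 of 14 lower, against 217 of 4106. Of 29 injury genes, 1 was called by edgeR, Cldn18, and of 22 amino acid genes 1, Gnmt. DESeq2 called 1 injury gene higher and 2 lower, and 4 amino acid genes lower. By edgeR 0 genes were called among ER stress (0 at an unadjusted p under 0.05), immediate early (3), heat shock (3), oxidative stress (2), acute phase (4), chemokine (3), translation (4) and H3K9 methylation genes (1). DESeq2 called 2 heat shock and 2 translation genes lower and 0 in the other 6 lists, though it gave an adjusted p to 3 of the 20 acute phase and 2 of the 14 chemokine genes. Clu had 14103, 10725, 15746 and 12506 CPM and an adjusted p of 0.765 by edgeR, and Hsp90b1 had an adjusted p of 0.985. At 2 sections a group a missed threshold does not show that a level is alike.

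Last, the ratio of enzyme-rich over other spots was itself compared between genotypes, in a fit with each section as a block. Of 20027 genes, 30 were called (0.15%), with 27 ratios higher (0.135%) and 3 lower (0.015%) in the sections labelled Ehmt2fl/fl. With library sizes alone 93 were higher and 35 lower. The count moved with the settings, since 0 genes were called by edgeR with every spot thinned to 500 UMIs (829 at an unadjusted p under 0.05), 4 without Ehmt2+/+ 1, 1280 without Ehmt2+/+ 2, 4 without Ehmt2fl/fl 1 and 0 without Ehmt2fl/fl 2 (559 at an unadjusted p under 0.05). Of the 30 genes, 0 were among those called without Ehmt2+/+ 1 (1100 of all genes at an unadjusted p under 0.05), where the interaction of Gm4744 was 0.85 and that of Igkc -1.56. The gap in score between the 2 kinds of spot also differed between genotypes, as given above, and its part in these calls was not tested.

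Immunoglobulin genes gave the 3 lower ratios. Igkc, the kappa light chain, had 3.35, 7.26, 15.5 and 14.2 CPM in enzyme-rich against 1.25, 23.1, 68.7 and 192 CPM in other spots, so its log2 ratio was 1.54, -1.43, -1.87 and -3.47 and the interaction -2.63 ± 0.37 (adjusted p = 1.68e-08 by edgeR). Ighj1 and Ighm gave interactions of -2.32 ± 0.47 and -1.94 ± 0.43. Lymphoid markers summed to 28.5, 193, 684 and 730 CPM in other spots. In other spots of the section Ehmt2+/+ 1 Igkc had 41 UMIs, so the ratio there rests on few molecules. In enzyme-rich spots of the 4 sections, 0%, 1.85%, 0.705% and 5.11% of olfactory receptor genes were at the level of Igkc or above it.

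Among the 27 higher ratios, Syt13, a synaptotagmin, had 1.54, 2.67, 23.7 and 18.0 CPM in enzyme-rich and 11.2, 20.6, 64.7 and 37.7 CPM in other spots, and log2 ratios of -2.71, -2.65, -1.17 and -0.78. It was lower in enzyme-rich spots throughout, by less in the sections labelled Ehmt2fl/fl, with an interaction of 2.05 ± 0.37 (adjusted p = 0.000214 by edgeR). Scgn, Ppp1r1a and the granin Chgb were also lower in enzyme-rich spots of all 4 sections, by less in the sections labelled Ehmt2fl/fl. With slide as a block Scgn and Ppp1r1a were not called, at interactions of 1.62 and 1.65. Chgb was the 1 called gene of 15 islet markers, against 0.15% of all genes. Some others crossed 0, such as Gm4744 with ratios of -0.22, 0.88, 1.20 and 2.45 and an interaction of 2.26 ± 0.39, and Krt20, a keratin, with -0.26, 0.41, 1.25 and 1.52 and an adjusted p of 7.2e-05 by edgeR. Trib3 and Slc7a11, targets of Atf4, and Gclc, which makes glutathione, were also among the 27, as were Myo5c and Gjb2.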

How the data were processed

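Visium CytAssist libraries of 4 fixed pancreas sections had been read out with a mouse probe set, so a gene is seen only through its probes and genes were not compared by length. The deposited files hold raw UMI counts, made by the authors with Space Ranger 2.0.1 against mm10, per the labels. Of 32589 features, 304 marked as deprecated were left out. No barcode was tied to a position, so off-tissue spots and doublets were not removed. The score, the members, the 27 gene lists and the named genes were chosen with earlier results of these data known.

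UMIs were summed over the enzyme-rich and the other spots of each section. Genotypes were compared with edgeR 4.0.16 (quasi-likelihood test on TMM-scaled sums, genes kept by filterByExpr at a count of 10, p-values adjusted by Benjamini-Hochberg over all genes tested, threshold 0.05) in R 4.3.3, and single values with exact two-sided permutation tests (scipy 1.17.1). Enzyme-rich against other spots received no test. Genes named were the score enzymes, Ehmt2, sex-linked genes, the 4 most abundant members of each list (3 for other cell types), called list members, the 10 highest and 10 lowest ratios outside the lists, and the 5 largest called changes in each direction. Other genes were named after their values were seen. Sections were numbered in accession order. Alternatives were DESeq2 1.42.0, other scalings, no filter on low counts, thinned spots, other cutoffs, each section left out and, chosen after seeing the data, slide as a block. The edgeR and DESeq2 steps were tested on simulated data. Results for some genes that these rules name are not reported here.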

Additional observations from a re-analysis of the deposited data

Results flagged for a closer look

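For 8 genes the ratio of enzyme-rich over other spots differed between genotypes by the interaction test of edgeR (adjusted p under 0.05). Positive values mean a higher ratio in the sections labelled Ehmt2fl/fl. Gm4744 had an interaction of 2.26 ± 0.39 (SE, log2), Syt13 2.05 ± 0.37, Emc4 2.04 ± 0.46, Ppp1r1a 1.90 ± 0.45 and Scgn 1.87 ± 0.44. With slide as a block Emc4, Ppp1r1a and Scgn were not called (adjusted p = 0.136, 0.0900 and 0.0859 by edgeR), at 1.64, 1.65 and 1.62. Upper-quartile factors and library sizes alone also ended these calls, and the rest of the 8 genes stayed called in all these settings. Without Ehmt2+/+ 1 the interactions of Emc4, Ppp1r1a and Scgn were 0.97, 1.24 and 1.01. Syt13, Ppp1r1a and Scgn, known from endocrine cells, were lower in enzyme-rich spots in 4 of 4 sections. Emc4, a subunit of the ER membrane protein complex, had 4.98, 3.05, 6.19 and 5.74 CPM in enzyme-rich spots, within the range of olfactory receptor genes in all sections but Ehmt2+/+ 1.

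Lower ratios were found for Igkc, at -2.63 ± 0.37, Ighj1, at -2.32 ± 0.47 (adjusted p = 0.00261 by edgeR), and Ighm, at -1.94 ± 0.43 (adjusted p = 0.00788 by edgeR). Ighj1 had 1.31, 50.7, 193 and 786 CPM in other spots, so the sections of a group differed widely. With every spot thinned to 500 UMIs 0 of the 8 genes were called, and 829 of all genes had an unadjusted p under 0.05. The thinned interactions were 1.98 for Syt13, 1.90 for Emc4, 1.77 for Ppp1r1a, 2.35 for Scgn, -2.36 for Ighj1 and -1.78 for Ighm, and 1.55 for Gm4744 and -1.24 for Igkc.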

How the results depend on the processing

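Between genotypes in enzyme-rich spots, 31 genes were called (19 higher, 12 lower), against 231 with DESeq2 (14 higher, 217 lower, 4106 genes with an adjusted p), 2022 with library sizes alone (2001 higher, 21 lower), 144 with upper-quartile factors (80 higher, 64 lower), 136 with spots thinned to 500 UMIs (55 higher, 81 lower), 12 with the top 10% of the score (11 higher, 1 lower), 13 with spots of at least 1000 UMIs (12 higher, 1 lower) and 108 with slide as a block (26 higher, 82 lower). Leaving out digestive enzymes gave 34 and no filter on low counts 44. Leaving out 1 section gave from 5 to 13394. Of the 31 genes, 10 were also called with the top 10% of the score, 12 with at least 1000 UMIs, 25 with thinned spots and 31 with slide as a block. DESeq2 called 20 of the 31 and gave the rest no adjusted p.

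For the ratio of enzyme-rich over other spots, 30 genes were called, against 70 with DESeq2 (70 higher, 0 lower, 1002 genes with an adjusted p). DESeq2 gave most genes, Gm4744 among them, no adjusted p. The count was 128 with library sizes alone (93 higher, 35 lower), 102 with upper-quartile factors (92 higher, 10 lower) and 0 by edgeR with thinned spots (829 at an unadjusted p under 0.05). It was 2 with the top 10% of the score, 193 with spots of at least 1000 UMIs and 97 with slide as a block. Leaving out 1 section gave from 0 by edgeR (559 at an unadjusted p under 0.05) to 1280. Of the 30 genes, 1 was also called with DESeq2, 10 with library sizes alone, 24 with upper-quartile factors, 2 with the top 10% of the score, 23 with at least 1000 UMIs, 25 with slide as a block, 4 without Ehmt2fl/fl 1 and 0 without Ehmt2+/+ 1 (1100 of all genes at an unadjusted p under 0.05 by edgeR). The cause of these shifts was not tested.

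The difference in other digestive enzymes and their ratio kept their direction in every alternative run. Ehmt2 was at -0.02 with library sizes alone, turned to 0.14 without Ehmt2+/+ 1 and reached -3.06 without Ehmt2+/+ 2. Of 445 values for 36 single results between genotypes, 325 kept direction and side of the threshold, 102 lost the call, 17 gained it and 1 turned. Of 96 for the 8 named ratios, 49 kept both and 47 lost the call. The labels give no replicate numbers, so sections were paired only through the slide they share, in the fit with slide as a block. The section Ehmt2+/+ 1 had 44520453 UMIs and the other sections from 7195548 to 8914187.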
